A study of Mus musculus with 12 samples.

Results

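The genes described here encode the enzymes that attach glutathione, a sugar or sulfate to drugs, hormones and waste products. They were chosen by symbol: every protein-coding row whose name begins with Gsta, Gstk, Gstm, Gsto, Gstp, Gstt, Gstz, Ugt1, Ugt2, Ugt3 or Sult. This gave 52 genes of 32692 listed, of which 20 are glutathione transferases (GST), 19 UDP-glycosyltransferases (UGT) and 13 sulfotransferases (SULT). A further 6 symbols fit these beginnings without a protein-coding label (Gstm2-ps1, Gstp-ps, Gstp3, Sult2a8, Sult6b2 and Ugt2a2) and were left out of all counts of members. The RNA came from kidneys of untreated wild-type (WT) mice at day 8 (n = 5 libraries) and of untreated WT mice at day 0 (n = 6 libraries), the neonatal period in which the series looked for transcripts that change. Strain, sex, litter and the number of animals behind a library are not given in the labels, so that a p-value here measures the spread between libraries only.

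Conjugation makes small fat-soluble molecules easier to excrete. GSTs join the thiol of glutathione to reactive compounds, UGTs transfer glucuronic acid or another sugar from a UDP-sugar, and SULTs transfer sulfate from the activated donor PAPS. In the kidney many of these enzymes, though not all, are found in the proximal tubule. This segment also takes up and secretes organic anions, and glutathione conjugates formed elsewhere are trimmed there to mercapturates. Day 0 lies within the period in which mouse kidneys still form nephrons.

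The libraries held between 18222170 and 24428652 estimated counts each. Kidney markers were present at both ages, and nephron markers moved strongly between them. Of 16 proximal tubule markers, 15 were called higher at day 8 and none lower, with a summed level of 5672 to 7103 TPM at day 8 and 1314 to 1773 TPM at day 0 (TPM is the authors' length-scaled unit, which sums to about the same total in each library), and none of the 16 was at 0 throughout. Summed markers of the thick ascending limb (1129 to 1548 TPM at day 8 and 403 to 491 TPM at day 0), the distal convoluted tubule (350 to 503 TPM at day 8 and 142 to 183 TPM at day 0), podocytes (271 to 326 TPM at day 8 and 193 to 256 TPM at day 0) and endothelium (219 to 253 TPM at day 8 and 150 to 181 TPM at day 0) were also higher in every day 8 library. All 4 nephron progenitor markers were called lower, with 7.79 to 9.84 TPM in sum at day 8 and 58.1 to 72.8 TPM at day 0. Of 12 liver markers, 11 were tested and 1 was called lower. Their sum overlapped between ages, at 18.6 to 103 TPM in day 8 libraries and 36.9 to 246 TPM in day 0 libraries, and was highest in day 0 libraries 1 to 3. Of 11 adrenal cortex markers 5 were tested and 3 called lower (10.8 to 18.7 TPM in sum at day 8 and 14.8 to 25.04 TPM at day 0). Of 7 fat markers 5 were tested and 4 called higher (73.1 to 160 TPM in sum at day 8 and 75.0 to 104 TPM at day 0), with the highest sums in day 8 libraries 3 to 5. Of 6 skeletal muscle markers 2 were tested and both called lower (0.998 to 2.55 TPM in sum at day 8 and 2.68 to 17.98 TPM at day 0, without overlap), and of 8 pancreas markers 2 were tested, 1 called higher and 1 lower (46.4 to 62.0 TPM in sum at day 8 and 17.3 to 32.5 TPM at day 0, without overlap). The part of these cell types in the results below was not tested. In RNA of a whole tissue, a change in the number of cells of one type and a change in RNA per cell cannot be told apart.

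Conjugation genes moved in both directions between the ages. Of the 52 genes, 40 had enough counts to be tested with edgeR's quasi-likelihood test, which adjusted p-values over all 18763 tested genes and called a gene at an adjusted p below 0.05. Fold changes are of these normalised counts, and levels are in TPM. At day 8, 19 of the 40 were higher, 10 lower and 11 not called. Over all tested genes, 57.6% were called, 27.5% higher and 30.1% lower, against 72.5% of the tested members, 47.5% higher and 25% lower. The share called lower was thus near the background, and the share called higher above it. That background holds genes of every biotype, whereas the members are protein-coding only, so the 2 sets are not alike. Sequence shared with other genes was counted in 31-base windows of annotated transcripts. Of 16 tested members with over 30% of windows shared, 7 were higher and 7 lower (43.8% each). The 7 higher were all UGT1 genes of the same locus, and their levels are not independent. Of the other 24, 12 were higher (50%) and 3 lower (12.5%). Those 3 were Gsta4, Gstm7 and Sult1d1, whose calls were lost in limma fits on TPM. The median log2 fold change (day 8 over day 0) was 0.34 for the 40 members and -0.01 for all tested genes. For 21 of the 40 the TPM of the 5 day 8 libraries lay wholly outside the range of day 0; over all tested genes this held for 28.7%. Of the UGT1 genes 7 of 9 rose, both UGT3 genes rose, 3 of the 4 tested UGT2 genes fell, and the GST and SULT classes held genes of both directions.

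**Figure D1:**
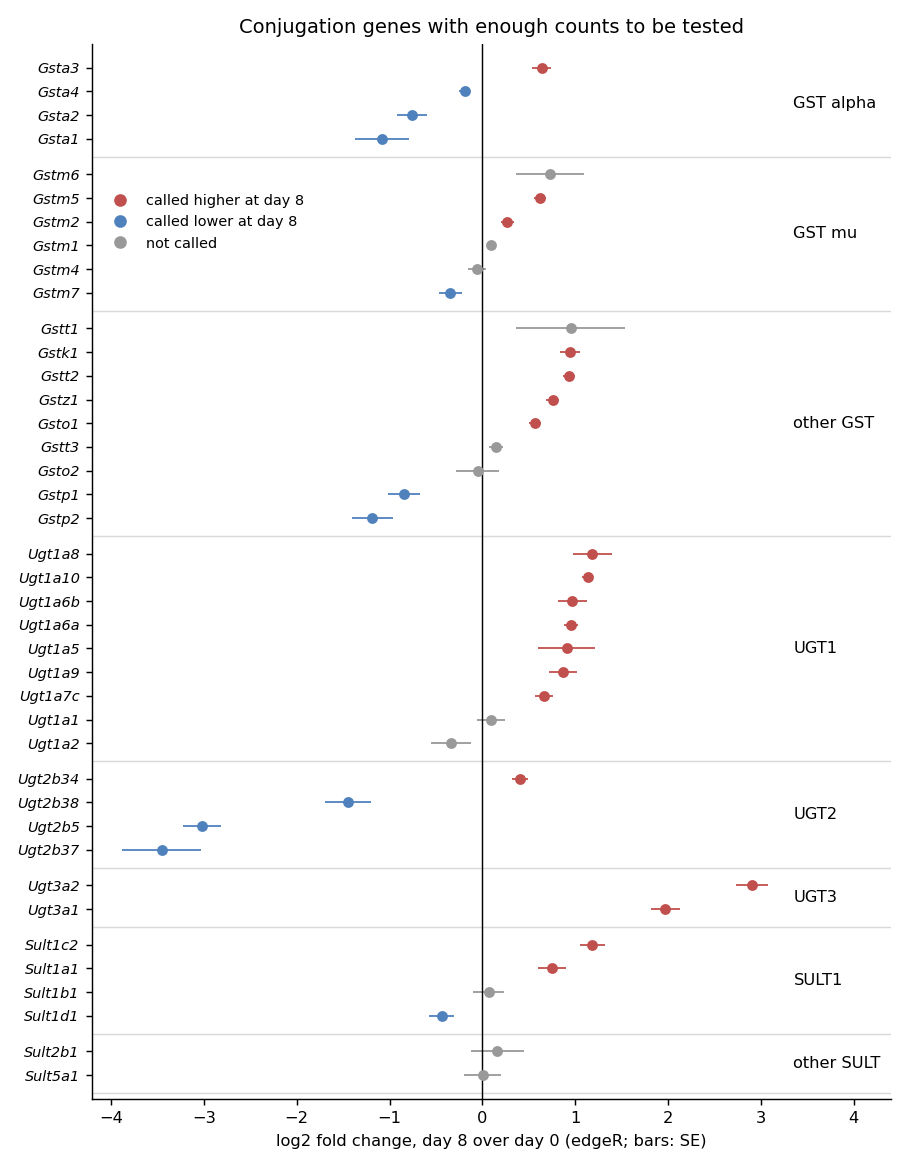
Log2 fold changes (day 8 over day 0, edgeR, x axis) of the 40 tested conjugation genes, grouped by enzyme class down the page, with bars for the SE and colour for the call. Changes ran between -3.45 (Ugt2b37) and 2.91 (Ugt3a2), and both extremes were UGT genes.

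The alpha class held 4 genes, all tested, of which 3 fell and 1 rose. GST alpha enzymes conjugate electrophiles and reduce lipid hydroperoxides, and GSTA4 is known for clearing the lipid aldehyde 4-hydroxynonenal. Gsta2 (chr9:78331018-78355788, minus strand, GRCm38, as are all gene coordinates below) had 41.9, 38.7, 56.1, 62.0 and 58.9 TPM in day 8 libraries, against 57.0 to 104 TPM in day 0 libraries (median 78.8). The ranges overlapped, with day 8 libraries 1 and 2 lowest and day 0 libraries 3 and 6 highest. Gsta2 fell 1.69-fold (log2 fold change -0.76, SE 0.16, edgeR adjusted p = 0.00152). Gsta1, a close relative, averaged 1.01 ± 0.30 TPM at day 8 and 2.08 ± 1.03 TPM at day 0 (SD, n = 5 and 6), and fell 2.12-fold (edgeR adjusted p = 0.00437). Most short stretches of Gsta1 are not its own: 92.9% of its 31-base windows, and 60.7% of those of Gsta2, also occur in another annotated gene. How far the reads could tell these genes apart was not tested. Summed over both, the level was 39.4 to 62.8 TPM at day 8 and 58.6 to 108 TPM at day 0. The sum leaves out Gm3776, which holds 80.3% of the windows of Gsta1. Without day 8 libraries 3 to 5, which left only libraries 1 and 2 at day 8, Gsta1 was not called (log2 fold change -1.08, edgeR adjusted p = 0.059). Its log2 fold change was also -1.08 in the full fit. Gsta2 was still called without those libraries (-1.04, adjusted p = 0.0035). Day 8 libraries 3 to 5 had the highest fat markers and were also the day 8 libraries without Xist, the RNA of the inactive X chromosome (at most 0.108 TPM, against 239 and 167 TPM in day 8 libraries 1 and 2). In a fit that also held log2 Xist, Gsta1 (-0.997, edgeR adjusted p = 0.00728) and Gsta2 (-0.80, adjusted p = 0.000849) were both called.

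Gsta3 went the other way. In the mouse this enzyme is known for detoxifying the epoxide of aflatoxin B1. It had 13.1, 14.1, 13.7, 14.9 and 14.3 TPM in day 8 libraries, and 5.67 to 9.03 TPM (median 8.27) in day 0 libraries. Every day 8 library stood above every day 0 library, and day 0 library 3 was lowest by a wide gap. The rise was 1.56-fold (log2 fold change 0.64, SE 0.10, edgeR adjusted p = 5.12e-05), and only 2.68% of its windows are shared with other genes. Gsta4 had 47.2, 46.1, 45.5, 48.0 and 42.8 TPM at day 8 and 42.2 to 55.3 TPM (median 46.8) at day 0. These ranges lay almost on top of each other, and the call of a 1.14-fold fall (edgeR adjusted p = 0.0158) was lost without day 8 library 3 (adjusted p = 0.0514), without day 8 library 5 (adjusted p = 0.064) and in the TPM fits (limma adjusted p = 0.576 and 0.577). Summed alpha TPM overlapped between ages, at 99.6 to 126 TPM at day 8 and 114 to 165 TPM at day 0. As a share of all GST TPM, which also moves with the other classes, the alpha class took 14.3 ± 0.6% at day 8 and 20.7 ± 2.7% at day 0, without overlap.

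The mu genes form a cluster on chromosome 3, and their called changes were at most 1.54-fold. Of 7 genes 6 were tested, 2 rose, 1 fell and 3 were not called, and Gstm3, with 17 counts over the day 8 libraries and 10 over the day 0 libraries, was not tested. Gstm5 (chr3:107895821-107898686, plus strand) showed the clearest difference, with 92.2, 98.0, 114, 118 and 104 TPM at day 8 and 56.6 to 71.7 TPM (median 60.5) at day 0. No day 0 library came near the day 8 range, and the rise was 1.54-fold (log2 fold change 0.62, SE 0.06, edgeR adjusted p = 6.83e-07). Gstm2 had 73.3, 71.2, 76.2, 83.5 and 70.7 TPM at day 8 and 48.1 to 66.9 TPM (median 58.2) at day 0. Its ranges also stood apart, by a smaller margin, for a 1.21-fold rise (edgeR adjusted p = 0.00221). Gstm1, with Gstm2 and Gstm5 the most abundant of the class, had 82.8, 75.1, 91.1, 91.8 and 87.7 TPM at day 8 and 65.6 to 88.6 TPM (median 79.1) at day 0, a log2 difference of 0.09 that was not called (edgeR adjusted p = 0.105). Without day 8 library 1 it was called higher (log2 fold change 0.13, adjusted p = 0.0185). Gstm7 averaged 5.19 ± 0.50 TPM at day 8 and 6.10 ± 1.26 TPM at day 0, a 1.27-fold fall (edgeR adjusted p = 0.0255). That call was lost when any one of 4 libraries was left out (day 0 library 4 or 5, day 8 library 1 or 5, adjusted p between 0.0507 and 0.0773). Gstm4 and Gstm6 were not called, at log2 differences of -0.06 and 0.73. Summed mu TPM was 256 to 307 at day 8 and 190 to 229 at day 0, without overlap.

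Among the remaining 9 GST genes, all tested, the pi genes fell while 4 genes of 4 other classes rose. Gstz1 encodes the zeta class enzyme that isomerises maleylacetoacetate in tyrosine breakdown. It had 93.4, 98.8, 121, 120 and 104 TPM at day 8 and 42.8 to 69.2 TPM (median 53.9) at day 0. No day 0 library reached a day 8 library, and the gene rose 1.69-fold (log2 fold change 0.76, SE 0.07, edgeR adjusted p = 2.97e-07). Gstt2, a theta class gene (chr10:75831114-75837424, minus strand), had 67.4, 54.5, 69.9, 68.2 and 75.0 TPM at day 8 and 24.6 to 38.7 TPM (median 29.6) at day 0. It rose 1.91-fold (log2 fold change 0.93, SE 0.07, edgeR adjusted p = 9.13e-09), again without overlap. Gstk1, the kappa enzyme of mitochondria and peroxisomes, averaged 19.0 ± 1.2 TPM at day 8 and 9.10 ± 1.64 TPM at day 0, and rose 1.92-fold (edgeR adjusted p = 2.34e-06). Gsto1, an omega enzyme known for reducing dehydroascorbate, averaged 72.2 ± 7.9 TPM at day 8 and 44.5 ± 5.8 TPM at day 0, and rose 1.48-fold (edgeR adjusted p = 2.31e-06). The neighbouring Gsto2 (1.12 ± 0.47 TPM at day 8 and 1.08 ± 0.29 TPM at day 0) was not called, nor was Gstt3 (23.0 ± 3.3 TPM at day 8 and 18.7 ± 1.9 TPM at day 0, edgeR adjusted p = 0.0991), which the TPM fits did call higher.

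The pi class, neighbouring genes on chromosome 19, is known for an electrophile-conjugating enzyme often abundant in fetal and tumour tissue. Gstp1 (chr19:4035407-4037985, minus strand) had 74.8, 76.4, 85.8, 76.7 and 68.2 TPM at day 8 and 76.9 to 146 TPM (median 139) at day 0. At day 0, 4 libraries lay between 136 and 146 TPM, and libraries 3 and 5 stood lower, at 76.9 and 96.1 TPM, the first of them inside the day 8 range. Gstp1 fell 1.80-fold (log2 fold change -0.84, SE 0.17, edgeR adjusted p = 0.00154). Gstp2 had 11.3, 11.4, 10.8, 14.6 and 5.87 TPM at day 8 and 11.5 to 30.6 TPM (median 26.4) at day 0. It was lowest at day 0 in the same libraries 3 and 5, and fell 2.27-fold (log2 fold change -1.18, SE 0.22, edgeR adjusted p = 0.000251). The pseudogene Gstp-ps, no member, shares 78.9% of its windows with Gstp2 and was lowest at day 0 in the same 2 libraries, so that the levels of the 3 rows are not independent measurements. Their sum was 84.9 to 108 TPM at day 8 and 97.5 to 193 TPM at day 0. Without day 8 libraries 3 to 5, which left only libraries 1 and 2 at day 8, the Gstp1 call was lost (log2 fold change -0.76, edgeR adjusted p = 0.0706).

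Gstt1 varied widely between day 8 libraries. It had 35.8, 5.97, 6.57, 19.3 and 19.9 TPM in day 8 libraries, against 1.12 to 12.7 TPM (median 8.04) in day 0 libraries. Day 8 libraries 1, 4 and 5 stood above every day 0 library, while libraries 2 and 3 lay inside the day 0 range. The log2 fold change of 0.95 had an SE of 0.59 and was not called (edgeR adjusted p = 0.196). Its windows are almost all its own (0.468% shared), and the adjacent Gstt2 and Gstt3 did not vary in this way within an age.

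The UGT1 genes gave the most uniform rise of the larger classes, with 7 of 9 called higher and none lower. All 9 are variants of one locus on chromosome 1: each gene has its own first exon, which encodes the substrate-binding part of the enzyme, joined to 3 exons with the same start and end in all 9. The first exons run from Ugt1a10, 160 kb before the first shared exon, to Ugt1a1, 3.09 kb before it. The 7 genes that start between 49.0 and 160 kb away were called higher, and Ugt1a2, at 14.4 kb, and Ugt1a1, at 3.09 kb, were not called. The call of Ugt1a5, the nearest of the 7, was lost in some fits given below. A relation to distance was not tested. Because reads in shared exons fit every variant, 53.0% to 84.2% of the windows of these genes are shared, and the split between them rests on the authors' counting. Ugt1a10 holds 65.1% of the windows of Ugt1a9 and 63.3% of those of Ugt1a8, and Ugt1a6a holds 83.9% of those of Ugt1a6b. The 9 levels are thus not independent measurements.

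**Figure D2:**
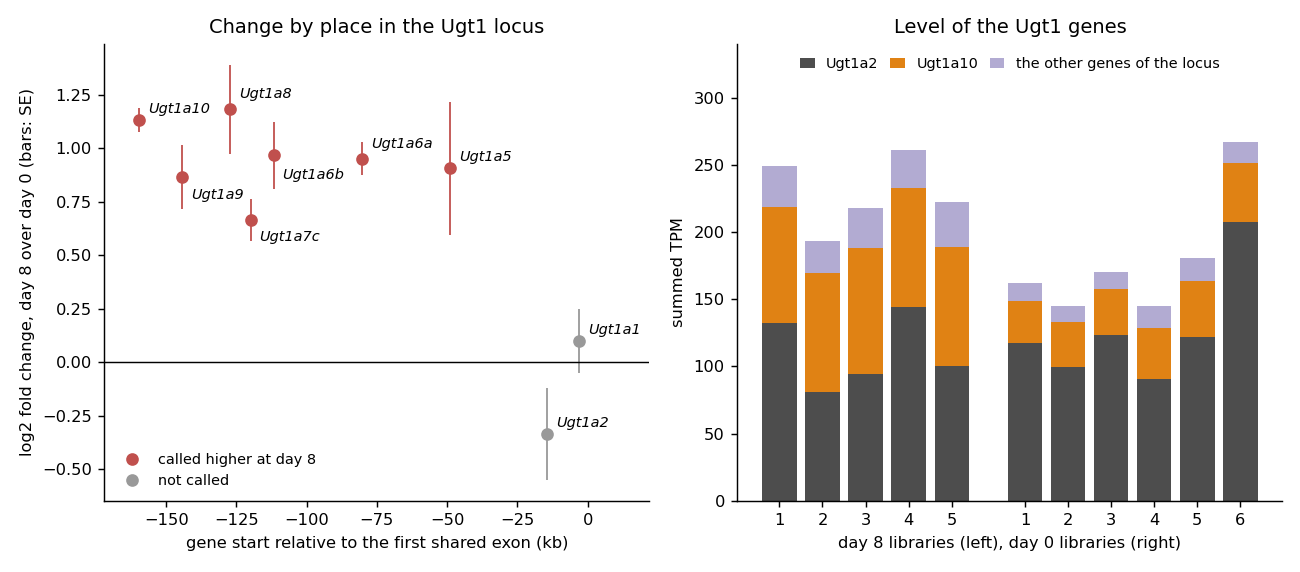
Left, log2 fold change (day 8 over day 0, y axis, bars SE) of each Ugt1 gene against the distance of its start from the first shared exon in kb; right, summed TPM of the locus in each library, with Ugt1a2, Ugt1a10 and the other genes stacked. The 7 genes 49.0 kb or more away lie between 0.67 and 1.18, and Ugt1a10 takes a larger part of every day 8 bar than of any day 0 bar.

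Most RNA of the locus came from Ugt1a2 and Ugt1a10. Ugt1a10 (chr1:88055388-88219004, plus strand) had 86.3, 88.2, 93.4, 88.9 and 88.4 TPM in day 8 libraries, against 30.9 to 44.2 TPM (median 35.9) in day 0 libraries. The day 8 libraries were almost identical to each other and all far above day 0. Ugt1a10 rose 2.19-fold (log2 fold change 1.13, SE 0.06, edgeR adjusted p = 1.97e-10), the smallest adjusted p among the members. Ugt1a2 (chr1:88200601-88218997, plus strand) had 132, 81.3, 94.5, 144 and 100 TPM at day 8 and 90.9 to 207 TPM (median 120) at day 0. The ages overlapped widely, with the highest value in day 0 library 6. The log2 fold change of -0.34 (SE 0.21) was not called (edgeR adjusted p = 0.209), and leaving out that library gave -0.16. Ugt1a10 thus held 39.4 ± 5.1% of the TPM of the locus at day 8 and 21.2 ± 3.4% at day 0, and Ugt1a2 held 47.7 ± 5.9% at day 8 and 70.2 ± 5.1% at day 0, without overlap in either. The ratio of Ugt1a10 to Ugt1a2 was 0.617 to 1.09 at day 8 and 0.213 to 0.416 at day 0.

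The rest of the locus was expressed at a low level. Ugt1a6a, whose product glucuronidates small phenols, had 9.01, 6.94, 9.79, 9.30 and 8.94 TPM at day 8 and 3.18 to 4.02 TPM (median 3.79) at day 0, and rose 1.94-fold (log2 fold change 0.95, SE 0.08, edgeR adjusted p = 3.64e-08). Ugt1a6b averaged 4.33 ± 0.88 TPM at day 8 and 2.04 ± 0.54 TPM at day 0, and rose 1.96-fold (edgeR adjusted p = 6.9e-05). Ugt1a8 had 1.80, 1.44, 2.52, 1.94 and 3.23 TPM at day 8 and 0.528 to 1.22 TPM (median 0.872) at day 0, and rose 2.27-fold (log2 fold change 1.18, SE 0.21, edgeR adjusted p = 0.000155). None of these 3 overlapped between ages. Ugt1a7c, Ugt1a9 and Ugt1a5 rose by 0.67, 0.87 and 0.91 on the log2 scale. The Ugt1a5 call (edgeR adjusted p = 0.0224) was lost when day 8 library 5 was left out, and when day 8 libraries 3 to 5 were (log2 fold change 0.82, adjusted p = 0.172) or day 0 libraries 1 to 3 were (0.53, adjusted p = 0.234). Ugt1a1, whose product conjugates bilirubin, was not called, at 2.36 ± 0.38 TPM at day 8 and 2.01 ± 0.44 TPM at day 0 (log2 fold change 0.10, SE 0.15, edgeR adjusted p = 0.603). The whole locus summed to 193 to 261 TPM at day 8 and 145 to 267 TPM at day 0, which overlapped.

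The UGT2 genes, whose products conjugate steroids and bile acids among others, held the largest falls. Of 8 genes 4 were tested: 3 fell and Ugt2b34 rose. Ugt2b5 (chr5:87124960-87140318, minus strand) had 0.566, 0.326, 0.713, 0.602 and 0.495 TPM in day 8 libraries, against 2.71 to 4.56 TPM (median 4.01) in day 0 libraries. All day 8 libraries were below 1 TPM and all day 0 libraries well above, and the gene fell 8.10-fold (log2 fold change -3.02, SE 0.20, edgeR adjusted p = 5.19e-09). Ugt2b37 (chr5:87240493-87254804, minus strand) had 0.698, 0.352, 0.876, 0.425 and 0.575 TPM at day 8 and 2.70 to 8.90 TPM (median 5.92) at day 0. It fell 10.9-fold (log2 fold change -3.45, SE 0.43, edgeR adjusted p = 3.15e-05), the largest change among the members. Ugt2b38 (chr5:87409942-87424203, minus strand) had 0.369, 0.322, 0.659, 0.595 and 0.535 TPM at day 8 and 0.843 to 1.66 TPM (median 1.17) at day 0, again without overlap. It fell 2.73-fold (log2 fold change -1.45, SE 0.24, edgeR adjusted p = 0.000103).

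Ugt2b37 split the day 0 libraries. Its level was 8.90, 7.25 and 7.72 TPM in day 0 libraries 1, 3 and 4 and 2.82, 4.59 and 2.70 TPM in libraries 2, 5 and 6. The first 3 held at most 0.328 TPM of Xist, and the other 3 held 196 to 265 TPM. In a fit that also held log2 Xist, Ugt2b37 was still called (log2 fold change -3.49, edgeR adjusted p = 1.92e-07). Without day 0 libraries 1 to 3, where summed liver markers were highest, the log2 fold changes were -2.76 for Ugt2b5, -3.13 for Ugt2b37 and -1.13 for Ugt2b38, all still called.

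Ugt2b5, Ugt2b37 and Ugt2b38 share sequence as well as direction. Of their windows, 56.4%, 34.4% and 52.9% occur in another gene, so that the 3 levels are partly one measurement. Their sum was 1.0 to 2.25 TPM at day 8 and 6.25 to 14.9 TPM at day 0. The promoter windows are shown because the genes fell together and stay alike upstream of the transcript. Each is the RefSeq window on GRCm38.p6 from 250 bases before to 50 after the start, and positions are of the leftmost base relative to the start. Capitals mark the nuclear receptor half-site AGGTCA, which all 3 hold on the plus strand of the gene.
Ugt2b5, chr5:87140291-87140590, minus strand: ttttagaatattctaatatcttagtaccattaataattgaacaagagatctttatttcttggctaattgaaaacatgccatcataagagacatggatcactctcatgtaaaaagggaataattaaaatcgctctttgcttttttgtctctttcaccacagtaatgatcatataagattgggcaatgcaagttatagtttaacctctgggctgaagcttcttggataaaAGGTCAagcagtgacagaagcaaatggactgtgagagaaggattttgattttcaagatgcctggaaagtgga
Ugt2b37, chr5:87254739-87255038, minus strand: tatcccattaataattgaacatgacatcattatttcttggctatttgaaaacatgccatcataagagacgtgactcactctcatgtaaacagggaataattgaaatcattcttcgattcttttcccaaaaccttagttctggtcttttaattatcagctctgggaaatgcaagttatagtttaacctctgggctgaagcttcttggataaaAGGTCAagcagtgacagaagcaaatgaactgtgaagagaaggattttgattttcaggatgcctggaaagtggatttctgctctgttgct
Ugt2b38, chr5:87424154-87424453, minus strand: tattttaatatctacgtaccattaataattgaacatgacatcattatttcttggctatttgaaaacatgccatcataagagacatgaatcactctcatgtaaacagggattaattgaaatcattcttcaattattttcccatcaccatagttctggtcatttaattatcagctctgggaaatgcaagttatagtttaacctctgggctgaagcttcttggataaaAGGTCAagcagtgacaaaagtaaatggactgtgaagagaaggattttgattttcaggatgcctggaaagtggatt
The half-site lay at -22, -39 and -25 in Ugt2b5, Ugt2b37 and Ugt2b38, each time in the same stretch of letters. Aligned end to end, the windows were 76.5% identical between Ugt2b5 and Ugt2b37, 84.2% between Ugt2b5 and Ugt2b38, and 87.3% between Ugt2b37 and Ugt2b38. These shares are of alignments 324, 310 and 314 positions long. Gaps count as not identical, including those from windows placed differently around the stretch, so the shares understate the likeness of the aligned bases. Of other members, Ugt1a9, Ugt1a7c and Gstk1, called higher, held it as well. So did Sult1b1, which was not called, and Ugt2b35, Ugt2b36 and Sult1e1, which were not tested. In Ugt2b36 it lay at -25 in nearly the same stretch of letters, and that gene had 6 counts at each age.

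Ugt2b34, at the other end of the cluster, rose. It had 7.01, 6.54, 8.66, 7.86 and 7.89 TPM at day 8 and 4.68 to 6.09 TPM (median 5.10) at day 0, without overlap, for a 1.32-fold change (log2 fold change 0.40, SE 0.09, edgeR adjusted p = 0.00113). At day 8 it was the most abundant UGT2 gene in every library. Ugt2a3, Ugt2b1, Ugt2b35 and Ugt2b36 had at most 20 counts over the libraries of an age and were not tested. Ugt2a3 had 0 counts at day 8 and 7 at day 0. Summed UGT2 TPM was 7.54 to 11.3 at day 8 and 10.97 to 21.2 at day 0, which overlapped. As a share of all UGT TPM, which also moves with the other classes, UGT2 made up 3.09 ± 0.34% at day 8 and 8.33 ± 2.67% at day 0.

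The UGT3 genes, a pair on chromosome 15, rose most. In human, UGT3A1 uses UDP-N-acetylglucosamine and UGT3A2 uses UDP-glucose or UDP-xylose, so that neither is a glucuronide-forming enzyme in the strict sense. Ugt3a2 (chr15:9335550-9370955, plus strand) had 41.7, 59.5, 76.5, 55.8 and 62.7 TPM in day 8 libraries, against 5.16 to 10.7 TPM (median 6.95) in day 0 libraries. The lowest day 8 library stood far above the highest day 0 library, and the gene rose 7.51-fold (log2 fold change 2.91, SE 0.17, edgeR adjusted p = 1.01e-07). Ugt3a1 (chr15:9276888-9315032, plus strand) had 3.27, 2.92, 4.27, 3.48 and 3.27 TPM at day 8 and 0.481 to 1.09 TPM (median 0.818) at day 0. It rose 3.92-fold (log2 fold change 1.97, SE 0.16, edgeR adjusted p = 3.19e-08), also without overlap. Only 15.2% of Ugt3a2 windows and 18.6% of Ugt3a1 windows are shared with other genes. The pair held 20.9 ± 4.5% of all UGT TPM at day 8 and 3.94 ± 0.53% at day 0. Summed markers of several nephron segments, given above, also stood without overlap between ages, and their part in this rise was not tested.

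The sulfotransferases showed a shift within SULT1, with 2 of 4 tested genes higher and 1 lower. Sult1d1, which in the mouse sulfates dopamine and other catecholamines, was the most abundant at both ages. It had 58.8, 60.7, 92.3, 80.4 and 87.2 TPM at day 8 and 68.8 to 127 TPM (median 87.9) at day 0. The ranges overlapped, and the gene fell 1.36-fold (log2 fold change -0.44, SE 0.13, edgeR adjusted p = 0.015). The call was lost in the TPM fits (limma adjusted p = 0.172) and without day 0 libraries 1 to 3 (edgeR adjusted p = 0.0672). Sult1c2 (chr17:53829637-53846339, minus strand) had 41.2, 26.6, 26.2, 32.7 and 31.2 TPM at day 8 and 10.4 to 16.5 TPM (median 12.1) at day 0. It rose 2.27-fold without overlap (log2 fold change 1.18, SE 0.13, edgeR adjusted p = 6.57e-06). Sult1d1 thus took 58.4 ± 6.3% of SULT TPM at day 8 and 76.6 ± 3.3% at day 0, and Sult1c2 took 24.8 ± 5.7% at day 8 and 10.7 ± 1.2% at day 0. Sult1a1, a phenol sulfotransferase, had 10.04, 8.46, 13.1, 10.1 and 12.2 TPM at day 8 and 4.53 to 8.79 TPM (median 4.96) at day 0. Apart from day 0 library 6, which reached into the day 8 range, the ages stood apart, and the rise was 1.68-fold (log2 fold change 0.75, SE 0.15, edgeR adjusted p = 0.000469). Sult1b1 was not called (3.54 ± 0.77 TPM at day 8 and 3.18 ± 0.77 TPM at day 0, edgeR adjusted p = 0.763).

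Other sulfotransferases were scarce. Of 8 genes outside SULT1 2 were tested and neither was called. Sult5a1 had 6.78, 4.59, 5.78, 5.57 and 8.39 TPM at day 8 and 2.23 to 8.00 TPM (median 4.99) at day 0, for a log2 fold change of 0.00 (SE 0.20, edgeR adjusted p = 0.992). Its ranges overlapped almost wholly, and its sign changed with the scaling. Sult2b1, a cholesterol sulfotransferase, had 0.937, 0.846, 0.804, 0.568 and 0.954 TPM at day 8 and 0.527 to 1.33 TPM (median 0.849) at day 0 (log2 fold change 0.16, SE 0.29, edgeR adjusted p = 0.657). Sult4a1, a brain-type enzyme, stayed at or below 0.282 TPM at day 8 and 0.241 TPM at day 0. Sult2a1, Sult2a5, Sult2a6, Sult3a1 and Sult6b1 had at most 8 counts over the libraries of an age. Sult1e1, the estrogen sulfotransferase of the SULT1 class, had 0 counts at day 8 and 8 at day 0 and was not tested. Without the filter on low counts Sult1e1 and Ugt2a3 were called lower, at levels of a few counts. Sult1b1, Sult1d1 and Sult1e1 lie next to the Ugt2 cluster, between 87513339 and 87591594 on chromosome 5.

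**Figure D3:**
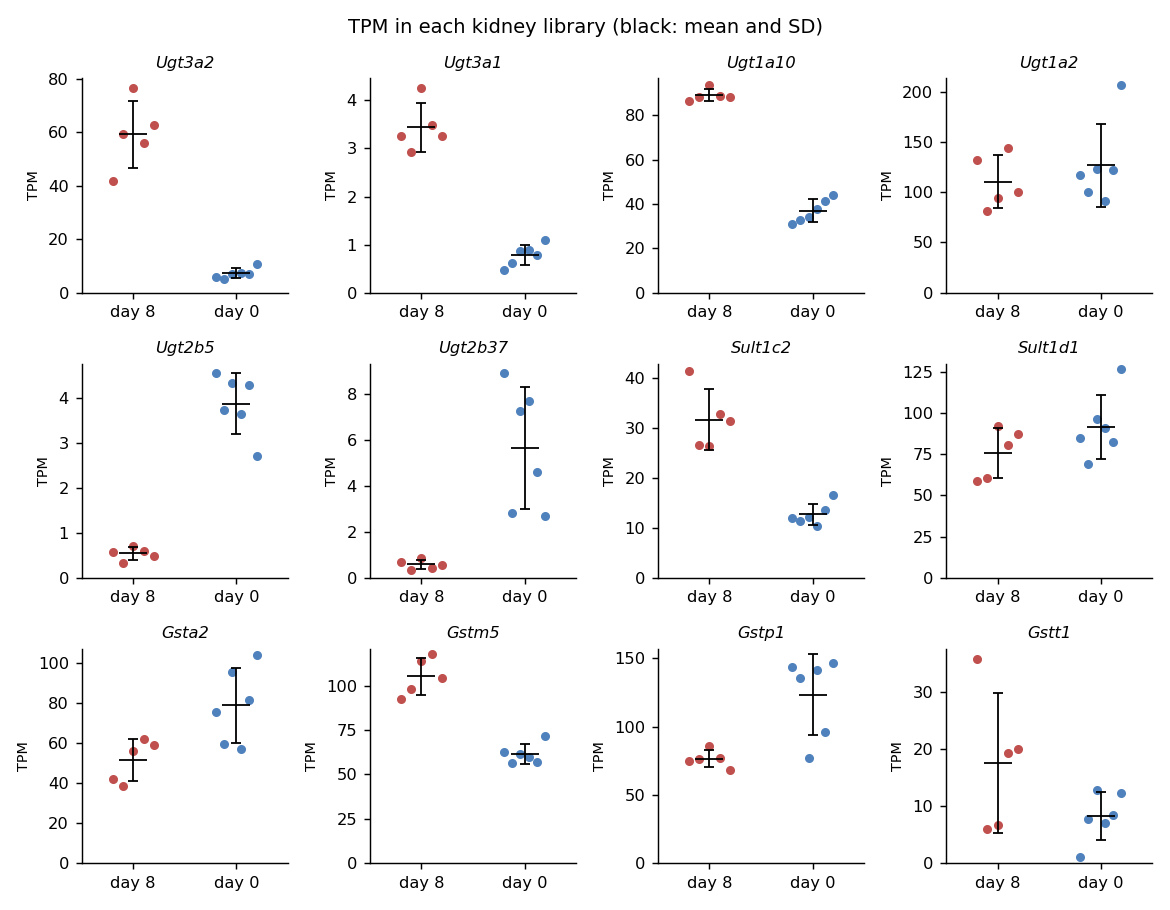
TPM (y axis, from 0) in each of 5 day 8 libraries (red, left) and 6 day 0 libraries (blue, right) for 12 conjugation genes, with the mean and SD in black. Ugt3a2, Ugt3a1, Ugt1a10, Ugt2b5, Ugt2b37, Sult1c2 and Gstm5 do not overlap between ages, while Ugt1a2, Sult1d1, Gsta2, Gstp1 and Gstt1 do.

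All GST genes together held 786 ± 59 TPM at day 8 and 663 ± 63 TPM at day 0, all UGT genes 301 ± 24 TPM at day 8 and 202 ± 46 TPM at day 0, and all SULT genes 129 ± 16 TPM at day 8 and 119 ± 23 TPM at day 0. The ranges of all 3 sums overlapped between ages.

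Promoter windows were found for 46 of the 52 members, and not for Gsta4, Gstt2, Sult2a1, Sult4a1, Ugt1a6b and Ugt3a2. Motifs were searched on both strands. AGGTCA was in 10 of the 46 windows (21.7%, against 16% of 27025 windows of all genes), and TATAAA, the TATA box, in 7 (15.2%, against 14.2%). TGACNNNGC, the core of the antioxidant response element bound by NRF2, was in 2 (4.35%, against 12.5%), namely those of Gsta3 and Gstm5. GCGTG, the core of the response element bound by the aryl hydrocarbon receptor, was in 9 (19.6%, against 32.5%). Member windows had a median GC content of 45.1%, and all windows 52.7%, which bears on how often each motif's letters occur. These are matches of letters in short windows and not measured binding.

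The genes that make glutathione and prepare its substrates mostly rose or were not called. Of 13 listed and tested, 6 rose and 1 fell. Gclm, the modifier subunit of the rate-limiting enzyme, averaged 195 ± 16 TPM at day 8 and 122 ± 13 TPM at day 0 and rose 1.66-fold (edgeR adjusted p = 1.16e-08). Gclc, its catalytic subunit, was not called (edgeR adjusted p = 0.305). Gclc averaged 40.0 ± 3.4 TPM at day 8 and 37.9 ± 2.4 TPM at day 0. Gss, glutathione synthetase, averaged 90.6 ± 7.7 TPM at day 8 and 46.1 ± 5.5 TPM at day 0 and rose 1.68-fold (edgeR adjusted p = 1.23e-07). Esd, an esterase that acts on S-formylglutathione, rose 1.32-fold. Slc7a11, the cystine importer, fell 3.06-fold at a low level (0.254 ± 0.047 TPM at day 8 and 0.746 ± 0.120 TPM at day 0, edgeR adjusted p = 9.29e-08).

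The mercapturate pathway, which turns glutathione conjugates into N-acetylcysteine conjugates, held genes of both directions. Of 21 listed genes 20 were in the table and 17 tested: 8 rose and 5 fell. Ggt1, the brush border enzyme that removes glutamate from the conjugate, averaged 289 ± 30 TPM at day 8 and 185 ± 31 TPM at day 0 and rose 1.52-fold (edgeR adjusted p = 3.09e-06). Anpep, an aminopeptidase, was called 1.17-fold lower (edgeR adjusted p = 0.0498), with TPM that overlapped (145 ± 10 at day 8 and 156 ± 33 at day 0). Of the N-acetyltransferase genes of the Nat8 family, Nat8f5 and Nat8f6 had 0 counts in all day 8 libraries and 91 and 92 counts over the day 0 libraries. Against a floor of 3 counts over the day 8 group, on summed counts scaled by the normalised library sizes, they were at least 28.3-fold and 28.6-fold lower (edgeR adjusted p = 0.000476 and 6.28e-06). Nat8f1, the most abundant listed gene of the family at both ages, was not called (edgeR adjusted p = 0.126). It averaged 65.3 ± 6.3 TPM at day 8 and 49.7 ± 15.5 TPM at day 0. Nat8f4 was not called either (edgeR adjusted p = 0.101), and Nat8f2 was called 1.5-fold lower (adjusted p = 0.00463). Chosen after its values were seen, Nat8, which in human acetylates the cysteine conjugate in the last step, had 0.462, 0.802, 1.52, 0.516 and 0.773 TPM at day 8 and 5.57 to 22.7 TPM (median 11.5) at day 0. It fell 16.6-fold (log2 fold change -4.05, SE 0.39, edgeR adjusted p = 3.37e-06). Dpep1, the dipeptidase of the step before, also chosen in this way, averaged 114 ± 14 TPM at day 8 and 30.5 ± 9.995 TPM at day 0 and rose 3.31-fold (edgeR adjusted p = 3.66e-05).

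Genes of donor supply were more often higher than lower. Of 9 genes for UDP-glucuronate supply, all tested, 5 rose and 2 fell. Ugp2, which makes UDP-glucose, averaged 101 ± 20 TPM at day 8 and 59.2 ± 5.5 TPM at day 0 and rose 1.56-fold (edgeR adjusted p = 1.01e-05), and Pgm2, a phosphoglucomutase, averaged 14.6 ± 2.0 TPM at day 8 and 21.2 ± 1.4 TPM at day 0 and fell 1.62-fold (edgeR adjusted p = 6.71e-07). Slc35b1, a nucleotide transporter, was not called (38.8 ± 2.7 TPM at day 8 and 33.9 ± 3.3 TPM at day 0). For sulfate, 12 of 13 listed genes were in the table and tested, of which 7 rose and 2 fell. Slc13a1, the sodium-sulfate cotransporter of the proximal tubule, had 146, 143, 207, 169 and 145 TPM at day 8 and 11.01 to 18.3 TPM (median 15.1) at day 0. Each day 8 library stood far above day 0, for a 9.63-fold rise (log2 fold change 3.27, SE 0.16, edgeR adjusted p = 2.69e-08). Suox, which oxidises sulfite to sulfate, averaged 27.6 ± 3.9 TPM at day 8 and 8.42 ± 1.55 TPM at day 0 and rose 2.98-fold (edgeR adjusted p = 7.34e-09). Papss1, which makes PAPS, was not called (65.9 ± 4.6 TPM at day 8 and 56.7 ± 4.0 TPM at day 0, edgeR adjusted p = 0.21).

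Transporters of conjugates were mostly higher. Of 12 efflux and organic anion transporters, all tested, 8 rose and 1 fell. Abcg2, an efflux pump, averaged 132 ± 11 TPM at day 8 and 70.7 ± 9.6 TPM at day 0 and rose 1.61-fold (edgeR adjusted p = 2.01e-07). Slc22a8, an organic anion uptake transporter that is also one of the proximal tubule markers above, averaged 96.4 ± 12.6 TPM at day 8 and 21.4 ± 3.2 TPM at day 0 and rose 4.10-fold (edgeR adjusted p = 2.1e-09). Slc22a6, its relative and also a marker, was not called (89.5 ± 12.6 TPM at day 8 and 77.8 ± 17.5 TPM at day 0). Abcb1b, a pump of drugs rather than conjugates, rose 4.59-fold at 0.862 ± 0.491 TPM at day 8 and 0.280 ± 0.187 TPM at day 0 (edgeR adjusted p = 1.09e-05). Of 11 deconjugating enzymes 10 were in the table and tested, 5 rose and 1 fell. Arsb and Arsk, lysosomal sulfatases, rose 2.39-fold and 1.70-fold (edgeR adjusted p = 3.72e-08 and 0.0028), and Oga, which removes sugars from proteins, was not called (58.3 ± 7.1 TPM at day 8 and 49.9 ± 7.2 TPM at day 0). Of 15 other genes with glutathione transferase activity or fold 12 were tested, 4 rose and 5 fell. Mgst3, a microsomal transferase, averaged 60.7 ± 4.3 TPM at day 8 and 32.9 ± 4.5 TPM at day 0 and rose 1.66-fold (edgeR adjusted p = 9.95e-05), and Ltc4s, leukotriene C4 synthase, rose 2.02-fold (edgeR adjusted p = 0.000321). Eef1g, a translation elongation factor subunit with a GST-like fold, fell 1.63-fold (edgeR adjusted p = 4.4e-07), and Clic4, a chloride channel family protein, fell 1.12-fold (edgeR adjusted p = 0.0115). The last 2 are not conjugating enzymes.

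Transcription factors known to act on conjugation genes were higher more often than lower, with 13 of 25 tested genes called higher and 4 lower. Nr1i2, the xenobiotic receptor PXR, averaged 3.40 ± 0.43 TPM at day 8 and 1.03 ± 0.26 TPM at day 0 and rose 3.03-fold (edgeR adjusted p = 9.49e-08). Esr1, an estrogen receptor, averaged 16.5 ± 2.4 TPM at day 8 and 4.402 ± 0.393 TPM at day 0 and rose 3.27-fold (edgeR adjusted p = 6.08e-11). Hnf4a, also a proximal tubule marker, averaged 134 ± 16 TPM at day 8 and 71.9 ± 6.1 TPM at day 0 and rose 1.69-fold (edgeR adjusted p = 4.25e-09), and Nfe2l1, a relative of NRF2, rose 1.14-fold (edgeR adjusted p = 0.00273). Of 21 target genes of NRF2 outside the members, all tested, 11 rose and 3 fell. Among them Osgin1 rose 2.26-fold (edgeR adjusted p = 1.01e-06), and the ferritin chains Ftl1 and Fth1, the most abundant of the list, rose 1.55-fold and 1.35-fold (edgeR adjusted p = 2.07e-06 and 8.15e-05), while Slc7a11, also in this list, fell. The list shares Gclc, Gclm and Slc7a11 with the glutathione list and Abcc1 with the transporters, so that these counts are not independent.

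**Figure D4:**
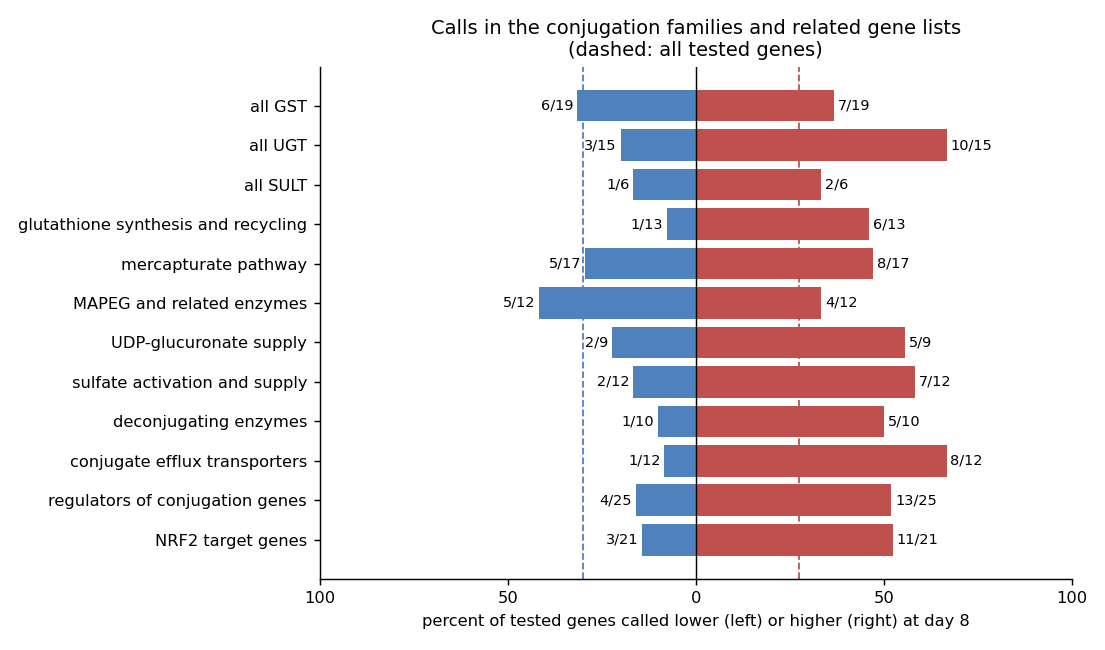
Percent of tested genes called lower (left, blue) or higher (right, red) at day 8 for the 3 enzyme families and 9 lists of related genes, with counts called of counts tested and dashed lines for all tested genes (30.1% lower and 27.5% higher). The share called higher lies above its line in all 12 rows, and the share called lower lies below its line in all but the GST family and the list of other enzymes with glutathione transferase activity or fold (MAPEG, the microsomal transferases, and related). Some shares are near their line, such as 2 of 6 SULT genes and 4 of 12 MAPEG and related genes higher, and 5 of 17 mercapturate genes lower. The lists share genes, so the rows are not independent.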

How the data were processed

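RNA was measured in 12 labelled kidney samples, 6 at each age. Columns were matched by sample title for 11 of them, and 1 day 8 sample was not analysed here. Replicates are numbered in accession order. The authors deposited estimated counts and TPM per gene for 32692 gene rows. Per the labels' protocols, libraries were stranded total RNA with ribosomal RNA removed. Per the submitters' processing notes, FastQC, fastp, DRAGEN, Picard and the mm10 build were used; counting settings, annotation and use of strand are not given in the sources used here.

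The deposited estimated counts were rounded and tested with edgeR 4.0.16 in R 4.3.3 (TMM, filterByExpr, robust quasi-likelihood fit with age as the only term, Benjamini-Hochberg over 18763 genes, threshold 0.05). The deposited TPM values were used for levels. Errors are the SD over libraries, or the SE where named. On simulated counts for the same 18763 genes, the step recovered 66%, 84%, 96% and 96% of genes changed 1.5-fold, 2-fold, 4-fold and 8-fold (50 genes each), with 14 false among 185 calls. No other genes were changed in the simulation, whereas 57.6% of tested genes were called in the data. Its rates therefore need not hold for the data. Library totals of 18222170 to 24428652 counts set the precision, which is low for genes with a few counts.

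Values by library are given, per class, for the 3 members with the highest mean TPM and the 3 with the largest called change at a mean CPM of at least 1, some of them as mean and SD. From each other list the 2 largest called changes and the 2 highest levels are named. Nat8, Dpep1, Nat8f1, Nat8f2, Nat8f4 and Gclc were named as well, after their values were seen. The members and lists were chosen with earlier results of these data known. Gene coordinates come from GENCODE vM21 (GRCm38, the assembly of mm10). Shared windows are 31-base stretches of a gene's annotated transcripts that also occur in those of another gene. A further motif search is not reported here. Other settings tried were DESeq2 1.42.0, limma-voom, limma 3.58.1 on log2 TPM with a pseudocount of 1 or 0.1 (genes averaging 1 TPM or more), other normalisations and filters, a term for log2 Xist, a threshold of 0.01, and fits that leave out libraries. Dropping day 8 libraries 3 to 5 together, or day 0 libraries 1 to 3, was chosen after seeing the data. The first kept only day 8 libraries 1 and 2, and the second only day 0 libraries 4 to 6, so that both lose precision.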

Additional observations from a re-analysis of the deposited data

Results flagged for a closer look

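In 3 of 60 groups of libraries tested (named members, each age), 1 library stood apart from the others by more than Dixon's 95% critical value, a rate that chance alone gives in about 5% of groups. Ugt1a2 stood at 207 TPM in day 0 library 6, Sult1a1 at 8.79 TPM in the same library, and Gsta3 at 5.67 TPM in day 0 library 3.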

How the results depend on the processing

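The counts of members called higher stayed between 18 and 21 under every alternative run, against 19. The 10 members called lower became 6 with limma on log2(TPM + 1), 6 on log2(TPM + 0.1) and 6 without day 8 libraries 3 to 5, and were 8 to 10 when 1 library was left out. In the TPM fits Gsta4, Gstm7 and Sult1d1 lost their call and Ugt2b38 lay below the minimum of 1 TPM. Without day 8 libraries 3 to 5, Gsta1, Gsta4, Gstm7 and Gstp1 lost theirs. Over all genes, the 5646 called lower became 2477 on log2(TPM + 1) and 2474 on log2(TPM + 0.1), with 5441 and 5388 called higher against 5162, and the median log2 fold change moved to 0.13; genes under 1 TPM were not tested there. With library size as the only scaling 4260 were called higher and 6530 lower. Sult5a1, not called in any fit, changed sign to -0.0605 with library size only, ran from -0.10 to 0.12 when 1 library was left out, and was -0.13 without day 0 libraries 1 to 3. The log2 ratio of the summed mu class was 0.27 on summed CPM and 0.40 on summed TPM. The cause of these shifts was not tested. Genes with a few counts, such as Sult1e1 and Ugt2a3, are limited by depth. No paired analysis was run, because the labels name no pairs of libraries between the ages. The replicate numbers used here only follow accession order.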
